A study of Mus musculus with 3 samples.

Results

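Embryonic Dach1 neurons were the cells of the E16.5 library with more than 700 detected genes, under 10% of UMIs from mitochondrial genes, at least 1 UMI of Dach1 and at least 5 UMIs of Sst. There were 107 such cells among 1961 Sst-high cells of that library (cells within the same limits on genes and mitochondrial UMIs and with at least 5 Sst UMIs) and among 12324 cells in the series. The library was made from neocortex of 6 pooled C57Bl/6 embryos carrying Sst-Cre on 1 allele and the RCE reporter, in which any cell that has ever expressed Cre from the Sst locus makes GFP, so the sorted GFP+ and DAPI- live cells could also include cells that no longer expressed Sst. Libraries of the same genotype at P1 and P5 came from 3 pooled animals each, and no animal label was given for single cells. No group was treated and all carried the same alleles. With 1 library per stage there was no replicate of any group, so no test was made: intervals are exact 95% intervals, Poisson for CPM, the usual scaling of a gene's UMIs to the total UMIs of its group, and Clopper-Pearson for shares, and cover counting error only.

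Most cortical neurons that express the peptide somatostatin are local interneurons born in the medial ganglionic eminence, among them Martinotti cells, whose axons ascend to layer 1. A small remainder are long-range projection (LRP) neurons, inhibitory cells with axons that leave their area, which in the adult are known for nitric oxide synthase (Nos1), neuropeptide Y (Npy) and Chodl. DACH1 is a nuclear protein that acts mostly as a transcriptional corepressor.

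Of the Sst-high cells at E16.5, 5.46% had a Dach1 UMI (4.49% to 6.56%). The 107 cells held 260 Dach1 UMIs, from 1 to 10 per cell with a median of 2. A single UMI was found in 46 cells, 2 UMIs in 20 cells and 3 or more in 41 cells. Nos1 was detected in 22 of the 107 cells (20.6%, 13.4% to 29.5%) and not in the other 85, against 19 of the 1854 Sst-high cells without Dach1 (1.02%). The Dach1 values describe how the cells were chosen and are not findings. Nos1 did not choose the cells and was used only to report them apart. Since a cell can express a gene and yield no UMI, "without Dach1" and "without Nos1" mean that no UMI was found. Depth was alike, with a median of 5931 UMIs in Dach1 cells and 6511 in cells without Dach1, and after every cell was thinned to 2000 UMIs, with 60 shallower cells left out, 3.31% of 1901 Sst-high cells kept a Dach1 UMI.

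The limit on Sst fell where Dach1 was rare. Dach1 was found in 3 of 153 cells with 4 Sst UMIs and in 0 of 118 cells with 5, which allows a share of up to 3.08%. Among the Dach1 cells, 4 had 5 to 9 Sst UMIs, and the median was 49 Sst UMIs, from 6 to 183, against 19 in cells without Dach1. A further 20 cells with Dach1 had fewer than 5 Sst UMIs and were left out. The Dach1 cell with the fewest genes had 814, and the highest mitochondrial share was 9.81%.

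Dach1 was also counted in cells with excitatory neuron markers, whose own Dach1 expression is not known. It was found in 2 of 39 cells with at least 5 UMIs of the excitatory neuron genes Neurod2 and Neurod6 (5.13%, 0.627% to 17.3%), which had a median of 11905 UMIs. These cells had up to 61 Sst UMIs and no doublet caller was run, so they are no negative control. The share over all Sst-high cells lay within their wide interval and is not read as expression by itself. After thinning 0 of the 39 had a Dach1 UMI, which allows up to 9.03%. In a cluster of 228 Sst-high cells led by Etv1, with a median of 8952 UMIs, no cell had a Dach1 UMI, which allows up to 1.60%. Dach1 detection was thus not alike in all clusters of Sst-high cells. Nos1 was found in 14 of the same 39 excitatory-marker cells (35.9%, 21.2% to 52.8%). Its share of 20.6% in Dach1 cells, at a median of 5931 UMIs, lay below that, but depth differed. After thinning Nos1 was found in 3 of the 39 cells (7.69%, 1.62% to 20.9%) and in 13.3% of Dach1 cells (7.49% to 21.4%). Among Sst-high cells without Dach1 the thinned share was 0.445% (0.19% to 0.88%). The 39 cells thus set no background for Nos1, whose share in Dach1 cells is not read as expression by itself either.

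Of 1548 Sst-high cells at E16.5 with either an Xist UMI or a Y-gene UMI but not both, 801 had Xist and 747 had Y genes. Dach1 was found in 8.61% of the Xist cells (6.76% to 10.8%) and in 3.08% of the Y-gene cells (1.96% to 4.58%). Among the typed Dach1 cells 69 of 92 had Xist (64.9% to 83.4%), against 50.3% of 1456 typed cells without Dach1. With 6 pooled embryos and no animal labels, sex and animal cannot be told apart. Between the E16.5 and P1 libraries 3 barcodes were shared and between E16.5 and P5 1 was shared, none of them in a Dach1 cell.

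The Sst-high cells were grouped into 14 clusters from genes other than Dach1, Sst and Nos1. Cluster 13, with 71 cells, held 57 of the 107 Dach1 cells (53.3%), and 80.3% of its cells had Dach1 (69.1% to 88.8%). This share depends on how finely the cells are grouped: with the resolution lowered from 1 to 0.5, the cluster holding most Dach1 cells had 186 cells, 67 of them with Dach1 (36.0%). Its leading genes were Ntn1, Fam46a, Pcp4, Plpp3, Syt6, Rarb, Epha4, Rhcg, Pou3f2 and Npy, and since 3 of these are LRP markers and 10 LRP markers were at least 1.5 times higher in it, it is called LRP-like. Cluster 14, with 25 cells, held 5 Dach1 cells (20.0%, 6.83% to 40.7%). It is called Meis2-like because 6 Meis2-type markers were at least 1.5 times higher in it, with Meis2 and Zfhx3 among its leaders. In this cluster 5 LRP markers and 5 non-Martinotti cell markers were at least 1.5 times higher too. The other 45 Dach1 cells were spread over 11 of the remaining 12 clusters, at most 10 in any of them. The rule thus gathered cells of several clusters, and 57 of the 107 lay in the LRP-like cluster. LRP markers were also among the leaders of other clusters. Pou3f2 and Sfrp1 were leaders of cluster 11, where 5 LRP markers were at least 1.5 times higher and 9 of 103 cells had Dach1. Chodl was a leader of cluster 4 (4 LRP markers higher, 9 of 172 cells with Dach1), Crhbp of clusters 10 and 12 and Col25a1 of cluster 7. Their Dach1 cells are counted among the 45. Of the typed cells in the LRP-like cluster 55 had Xist and 8 had Y genes (87.3% with Xist, 76.5% to 94.4%), against 50.0% in the clusters other than 13 and 14. Y genes were left out of the clustering but Xist was not, so this share is not independent of the clusters.

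**Figure D1:**
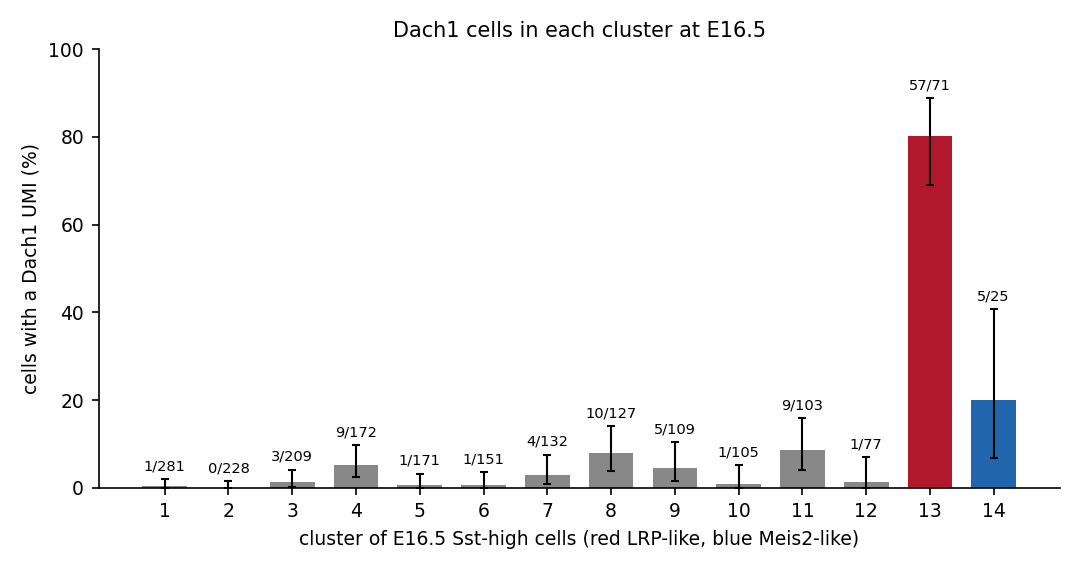
The share of cells with a Dach1 UMI (y axis, %) in each of the 14 clusters of E16.5 Sst-high cells (x axis); bars give the share, lines the exact 95% interval and the fractions written over them Dach1 cells over all cells. The LRP-like cluster (57 of 71 cells) stands above the others, and the Meis2-like cluster (5 of 25) is next.

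Cells with more Dach1 UMIs lay more often in the LRP-like cluster, which is no test. Dach1 UMIs were used by the rule, and that cluster was picked as the one holding most Dach1 cells. Of the cells with 1 Dach1 UMI 15 of 46 lay in it (32.6%, 19.5% to 48.0%), of those with 2 UMIs 11 of 20 (55.0%, 31.5% to 76.9%), and of those with 3 or more 31 of 41 (75.6%, 59.7% to 87.6%). The interval at 2 UMIs overlapped both others. None of the 4 cells with 5 to 9 Sst UMIs or of the 10 cells with 5% to 10% mitochondrial UMIs lay in it. Of the 22 Dach1 cells with Nos1, 21 were in the LRP-like cluster, as were 36 of the 85 without Nos1.

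To describe what sets Dach1 cells apart, UMIs were summed over the 107 cells and over the 1854 cells without Dach1. Of 6837 genes with a mean of at least 20 CPM over both sums, 398 were at least 1.5 times higher in Dach1 cells on the log2(CPM + 1) scale (5.82%) and 331 at least 1.5 times lower (4.84%), with a median log2 ratio of 0.02. The 12 genes with the largest ratios among those found in at least 10% of Dach1 cells included secreted and membrane proteins that steer axons (Ntn1, Epha4 and Rgma), transcriptional regulators (Rarb, Lhx8, Pou3f2 and Cited1) and the Wnt antagonist Sfrp1. Of the 12, 8 also lead the LRP-like cluster, so that for them the ratio and the cluster describe the same cells. Names, clusters and ratios come from the same cells and none is a test of another.

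Ntn1, which encodes the secreted axon guidance cue netrin-1, had 48 UMIs in 28 of the 107 cells, or 64.6 CPM (47.6 to 85.7), against 2.07 CPM (1.39 to 2.97) in cells without Dach1, a log2 ratio of 4.42. Epha4, a receptor for ephrins, reached 153 CPM (127 to 184) against 9.13 CPM (7.62 to 10.9), a log2 ratio of 3.93. Rgma, a membrane ligand of neogenin, was found in 44 Dach1 cells and reached 91.5 CPM against 10.1 CPM. In all 3 genes, the intervals of the Dach1 cells and of the cells without Dach1 lay far apart. Most of their UMIs in Dach1 cells came from the LRP-like cluster: of Ntn1 45 of 48, with 3 in the other clusters and 0 in the Meis2-like cluster.

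Rarb, which encodes a nuclear receptor for retinoic acid, had 44 UMIs in 22 Dach1 cells, or 59.2 CPM (43.0 to 79.5), against 2.43 CPM (1.68 to 3.39), a log2 ratio of 4.14. The Rarb gene is known to be induced by its own ligand through a response element of paired direct repeats in its promoter. The promoter is shown because the gene had the second largest ratio among genes found in at least 10% of Dach1 cells and its sequence holds that element, in capitals. From RefSeq on GRCm38.p6, chr14:16575427-16575726, minus strand, around the start site:
Rarb: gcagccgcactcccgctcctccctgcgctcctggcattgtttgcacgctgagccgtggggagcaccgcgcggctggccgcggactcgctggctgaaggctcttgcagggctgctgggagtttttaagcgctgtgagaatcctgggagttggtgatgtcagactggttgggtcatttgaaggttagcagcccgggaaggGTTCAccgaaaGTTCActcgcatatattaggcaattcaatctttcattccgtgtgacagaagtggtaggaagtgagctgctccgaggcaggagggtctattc
The motif searched was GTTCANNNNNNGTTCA, or its reverse complement TGAACNNNNNNTGAAC on the other strand. Its match began 52 bases before the start site. Of 32851 promoters of the same length 25 held the motif (0.0761%). Of the 12 genes with the largest ratios 8 had a promoter entry, and Rarb was the single one of these 8 with a match. A match describes the letters in this window and is not evidence that a receptor was bound there.

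Genes around retinoic acid were then looked up, chosen after the value of Rarb was seen. Of 18 genes, Rarb among them, 5 entered the comparison, 3 higher and 1 lower, where 5.82% and 4.84% of all genes were. Rarb, which prompted the list, is 1 of the 3 higher, so the count is no test. In the same comparison without the LRP-like and Meis2-like clusters, 3 entered, 0 higher and 1 lower. Crabp1, which binds retinoic acid, was past the fold, yet all of its 30 UMIs lay in 4 cells of the Meis2-like cluster. Rara, a second receptor, was lower in Dach1 cells, at 28.3 CPM (17.5 to 43.2) against 52.2 CPM (48.4 to 56.1).

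Pcp4, a small calmodulin-binding protein, had the most UMIs of the 12 genes. It was found in 64 Dach1 cells (59.8%), with at most 36 UMIs in a cell, at 962 CPM (893 to 1036), and in 11.3% of cells without Dach1, at 61.8 CPM (57.7 to 66.0). Syt6, a synaptotagmin, was found in 54.2% of Dach1 cells and 8.90% of cells without Dach1, at 209 CPM (177 to 244) against 16.1 CPM (14.1 to 18.4). After thinning, the shares for Syt6 were 29.5% and 3.45%. Fam46a and Plpp3, a lipid phosphatase, reached 120 and 43.1 CPM against 9.56 and 3.28 CPM.

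Among the transcriptional regulators, Pou3f2, a POU factor also known as Brn2, was found in 31 Dach1 cells (29.0%) and 3.83% of cells without Dach1, at 102 CPM (80.6 to 128) against 9.99 CPM (8.40 to 11.8). Lhx8, a LIM factor of the ventral telencephalon, had 31 UMIs in 18 Dach1 cells, all 18 of them in the LRP-like cluster, at 41.7 CPM against 3.07 CPM. Cited1, a transcriptional coactivator, had 46 UMIs in 17 cells, and 5 cells held 60.9% of them. Sfrp1 was found in 50.5% of Dach1 cells and 13.2% of the others, at 159 CPM (131 to 190) against 22.3 CPM (19.9 to 24.9). Pou3f2, Sfrp1 and Rgma are not particular to Dach1 cells. All were also among the leading genes of cluster 11, where 9 of 103 cells had a Dach1 UMI. When the LRP-like and Meis2-like clusters were left out of both groups, which was chosen after seeing the data, Lhx8 and Fam46a changed direction, with log2 ratios of -1.92 and -0.36 over 0 and 2 UMIs in the 45 Dach1 cells that remained.

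The 8 genes with the smallest ratios included Npas1 and Nr2f2, factors of other interneuron groups. Npas1 had 6 UMIs in 4 Dach1 cells, at 8.08 CPM (2.96 to 17.6), against 87.5 CPM (82.6 to 92.5) in cells without Dach1, where 24.2% of cells had it, so it was 10.8-fold lower in Dach1 cells. Nr2f2, a nuclear receptor also known as COUP-TFII, had 14 UMIs in 7 cells, at 18.8 CPM (10.3 to 31.6) against 168 CPM (161 to 175). Etv1, an ETS factor, was at 16.2 CPM (8.35 to 28.2) against 93.8 CPM (88.8 to 99.0). Cxcr4, the chemokine receptor that guides migrating interneurons, was at 10.8 CPM against 60.8 CPM, and the cannabinoid receptor gene Cnr1 at 22.9 CPM against 111 CPM. Adgra1, Col19a1 and the potassium channel gene Kcnh3 completed the 8, with log2 ratios from -2.25 to -2.05. In the 57 Dach1 cells of the LRP-like cluster Nr2f2 and Cxcr4 had 0 UMIs, and against a floor of 3 counts they were at least 19.6-fold and at least 7.08-fold lower than in cells without Dach1.

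A list of 15 LRP markers from the study's marker table was compared next, 13 of which the rule had not used. Of these, 8 entered the comparison, and 7 were higher and 0 lower, with a median log2 ratio of 2.30 against 0.02 over all genes. Over all genes 5.82% were higher and 4.84% lower, here and for each further list over all Dach1 cells at E16.5. Npy, found in 100 of the 107 Dach1 cells and in 76.9% of cells without Dach1, was at 13128 CPM (12868 to 13391) against 2299 CPM (2274 to 2324). Ptn, a secreted growth factor, was found in 90.7% against 50.9% of cells, at 774 CPM (712 to 840) against 182 CPM (175 to 189). Chodl, a membrane lectin, was at 47.1 CPM (32.8 to 65.5) against 11.5 CPM (9.78 to 13.4), and Crhbp, which binds corticotropin-releasing hormone, at 22.9 CPM (13.3 to 36.6) against 27.5 CPM (24.9 to 30.4). Without the LRP-like and Meis2-like clusters the median of the list was 1.13.

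Transcription factors of the LRP program were mostly higher as well. Of 12 that entered, 11 were higher and 1, Lmo4, was lower (log2 ratio -0.62), with a median of 1.33. Sox1, an SRY-box factor, was found in 77.6% of Dach1 cells and 37.6% of the others, at 346 CPM (305 to 391) against 117 CPM (112 to 123). Sox2 was at 486 CPM against 277 CPM and Tshz2, a zinc-finger factor, at 110 CPM against 51.9 CPM. Of a longer list of LRP neuron genes 93 entered, 74 higher and 1 lower, with a median of 1.17. The factors and the longer list came from the study's own comparisons of SST neuron types in these libraries, so their counts are not independent evidence of a direction. The LRP and Martinotti cell markers were, per the study's methods, taken from adult Patch-seq cells together with canonical markers.

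Nos1 itself was used to divide the cells, but other genes of nitric oxide signaling were not. Of 5 that entered, 4 were higher and 0 lower, beside 5.82% and 4.84% of all genes, with a median of 1.51. Gucy1b1 and Gucy1a1 encode the subunits of soluble guanylyl cyclase, the receptor for nitric oxide, and were at 83.5 CPM (64.0 to 107) against 19.0 CPM (16.8 to 21.4) and at 109 CPM (86.6 to 136) against 38.1 CPM (34.9 to 41.5). Of the 62 Gucy1b1 UMIs in Dach1 cells 26 (41.9%) lay in 4 of the 5 Meis2-like cells, 25 in the LRP-like cluster and 11 in the other clusters, and of the 81 Gucy1a1 UMIs 15, 48 and 18 did. Pde1a, a phosphodiesterase of cyclic nucleotides, and Cygb, a globin that degrades nitric oxide, had log2 ratios of 1.87 and 1.51. Nos1ap, an adaptor of the synthase, had a log2 ratio of -0.33.

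Axon guidance genes were split. Of 28 that entered, 9 were higher and 5 lower, with a median of 0.08. Both were more frequent than over all genes (5.82% higher and 4.84% lower). Besides Ntn1, Epha4 and Rgma, the netrin receptor gene Unc5c was at 195 CPM (165 to 230) against 31.3 CPM (28.4 to 34.3) and the Slit receptor gene Robo1 at 135 CPM (110 to 164) against 21.8 CPM (19.4 to 24.3). Ntng1, a membrane-bound netrin, was at 145 CPM against 34.5 CPM. The semaphorin coreceptor gene Nrp2 was at 21.5 CPM (12.3 to 35.0) against 59.7 CPM (55.7 to 63.8), and Sema3a, a secreted semaphorin, at 66.0 CPM against 152 CPM. Dcc, the other main netrin receptor, had 1 UMI in Dach1 cells and 200 in cells without Dach1, or 14.3 CPM, and did not enter. Of 12 genes of axon growth and the cytoskeleton, none lay past the fold in either direction, and the same was true of 7 entered corepressor partners of DACH1.

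Martinotti cell and caudal ganglionic eminence lists had medians below 0. Of 13 Martinotti cell markers that entered 3 were higher and 7 lower, beside 5.82% and 4.84% of all genes, with a median of -1.10. The 3 that were higher were Cbln4, a cerebellin that organizes synapses, at 56.5 CPM against 7.42 CPM, the serotonin receptor gene Htr1a at 36.3 CPM against 5.14 CPM, and Nell1. All 3 entered markers of interneurons of the caudal ganglionic eminence were lower, with a median of -1.43. Of 10 entered lineage factors of the medial ganglionic eminence 3 were higher and 4 lower. Lhx6, the factor that specifies these interneurons, was at 658 CPM (601 to 719) against 404 CPM (394 to 415), and Sox6 at 654 CPM (597 to 715) against 340 CPM (330 to 349). Satb1, a chromatin organizer needed for Sst interneurons, was instead at 277 CPM (241 to 318) against 595 CPM (583 to 608).

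**Figure D2:**
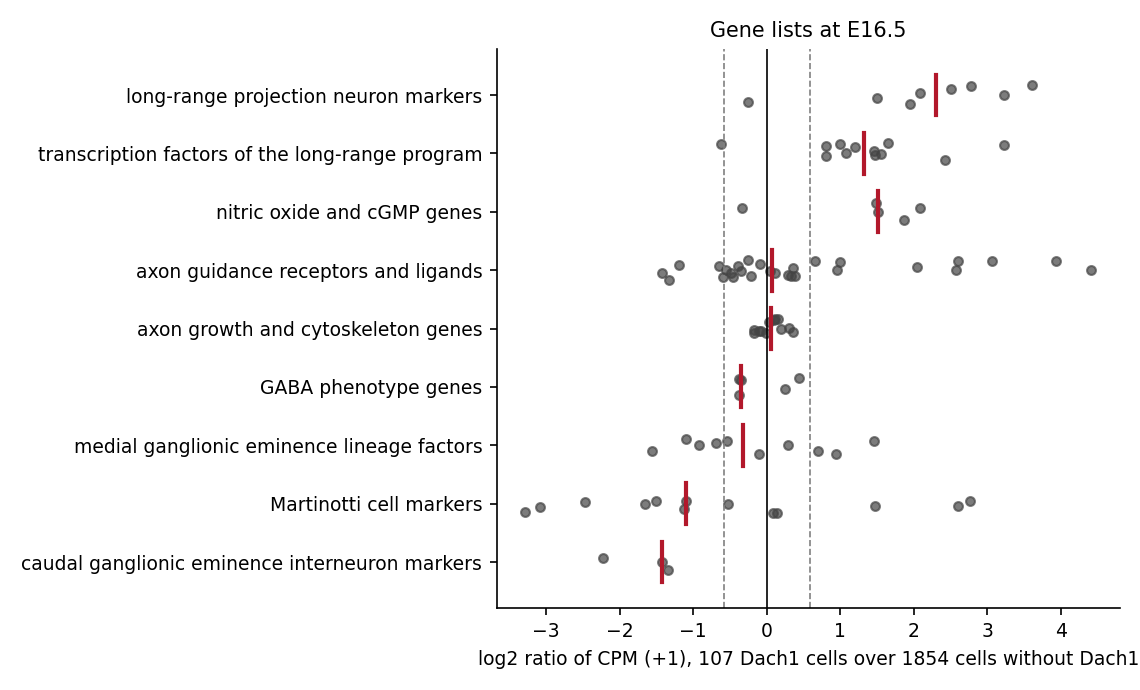
The log2 ratio of CPM (+1) of Dach1 cells over cells without Dach1 (x axis) for the genes of each list that entered (y axis); each point is a gene, red lines are medians and dashed lines mark 1.5-fold. LRP markers lie mostly to the right of 0, and Martinotti and caudal ganglionic eminence markers mostly to the left.

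The 5 genes of the GABA phenotype stayed within the fold when all Dach1 cells were summed, with a median of -0.34. The clusters were not alike in Gad2, which encodes the smaller glutamate decarboxylase. It was detected in 10 of the 57 Dach1 cells of the LRP-like cluster (17.5%), at 68.7 CPM, against 81.6% of cells without Dach1, at 297 CPM, and in 37 of the 45 Dach1 cells outside that cluster and the Meis2-like cluster, at 401 CPM. Gad1, for the larger enzyme, was found in 68.2% of Dach1 cells and 77.7% of the others, and Slc32a1, the vesicular GABA transporter, in 81.3% of each.

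The Dach1 cells without Nos1 were then compared with the 1835 Sst-high cells that had neither gene. Of 6835 genes 434 were higher (6.35%) and 332 lower (4.86%), with a median of 0.02. All 6 entered LRP markers were higher, with a median of 2.32. That median was 1.61 with the filter at 5 CPM and 1.46 unfiltered. Npy was at 8099 CPM against 2168 CPM and Ptn at 583 CPM against 174 CPM. Epha4 had the largest ratio among genes found in at least 10% of these cells, with 97 UMIs in 32 of 85 cells, at 168 CPM (136 to 205) against 8.75 CPM (7.26 to 10.5), a log2 ratio of 4.12. Pcp4, Rarb, Lhx8, Syt6, Fam46a, Pou3f2, Rgma and Sfrp1 followed with log2 ratios from 3.91 down to 2.74. Htr1a, Cbln4 and Robo1 were among these 12 too, at 2.80, 2.62 and 2.60. Npas1 and Nr2f2 again had the smallest ratios, -3.50 and -2.76. Of the transcription factors named for LRP neurons 11 of 12 were higher, and of the nitric oxide and cGMP genes 4 of 5. The comparison shares most of its cells with that of all Dach1 cells, so the 2 sets of values are not separate evidence. After thinning, Npy was found in 86.8% of these cells and 67.2% of cells with neither gene.

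Among the Dach1 cells, those with Nos1 were set against those without. Of 6822 genes 1146 were higher in the 22 cells with Nos1 (16.8%) and 1004 lower (14.7%), high shares that go with only 166467 UMIs in the smaller group. Of 9 entered LRP markers 7 were higher and 0 lower. Since 21 of the 22 lay in the LRP-like cluster and 49 of the 85 did not, this comparison also set that cluster against others, and the parts of Nos1 and of the cluster cannot be told apart in it.

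Within the LRP-like cluster, 21 Dach1 cells with Nos1 could be compared with 36 without Nos1, a comparison chosen after seeing the clusters. The median depth was 6210 and 5398.5 UMIs. The genes named from it were chosen after their values were seen. Of 6735 genes 1402 were higher (20.8%) and 1324 lower (19.7%), so a count of genes says little here, and the values below are given with their UMIs. Nos1 was found in 19 of the 43 cells with Xist (44.2%, 29.1% to 60.1%) and in 0 of the 7 with Y genes, which allows up to 41.0%. Sex or animal may thus have moved with Nos1, and their part in these values was not tested.

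LRP markers were more often higher than lower in the cells with Nos1. Of 10 that entered 6 were higher in cells with Nos1 and 2, Pou3f2 and Sfrp1, were lower, with a median log2 ratio of 0.65. Over all genes 20.8% were higher and 19.7% lower, so the share of markers that was lower was near that of all genes. Of 13 entered transcription factors of the LRP program 1 was higher and 5 were lower, with a median of -0.45, and of the longer list of LRP neuron genes 100 entered, 31 higher and 12 lower. Npy was found in all 57 cells, at 32650 CPM (31753 to 33566) in cells with Nos1 and 16246 CPM (15686 to 16821) in cells without. Chodl was found in 11 of 21 and in 6 of 36 cells, at 124 CPM (74.4 to 193) and 56.2 CPM (28.1 to 101). Crhbp had 12 UMIs in 6 cells with Nos1 and 1 UMI in cells without, a ratio of 15.3 (2.26 to 653). Penk, the precursor of enkephalin, had 13 UMIs in 7 cells and 2 UMIs in 2 cells. Cort, the gene of cortistatin, had 19 UMIs in 4 cells with up to 16 in a cell, against 1 UMI. Gucy1b1 had 20 UMIs in 12 cells and 5 UMIs in 5 cells, a ratio of 5.09 (1.85 to 17.4), and Hhip, an inhibitor of hedgehog signaling, had 5 UMIs in 4 cells with Nos1 and 0 in every other Sst-high cell at E16.5.

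The cells without Nos1 had more of other genes. Epha4 was at 368 CPM in them and 111 CPM in cells with Nos1. Nfib, a nuclear factor of differentiating neurons, had 34 UMIs in 14 of 36 cells and 2 UMIs in 1 of 21. Sox11, an SRY-box factor of young neurons, was at 6627 and 3415 CPM, and Maf, a leucine-zipper factor, at 389 and 143 CPM. Lhx8 had 25 UMIs in 13 cells without Nos1 and 6 UMIs in 5 cells with Nos1. Sp4, an Sp-family factor, had 12 UMIs in 11 cells without Nos1 and 0 in cells with Nos1, where it was at least 3.14-fold lower. Genes at like levels in both included Ntn1, Rarb, Syt6 and Fam46a, whose log2 ratios lay between -0.11 and 0.54. Dach1 itself, which the rule used, was at 429 CPM (332 to 546) with Nos1 and 552 CPM (453 to 667) without.

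**Figure D3:**
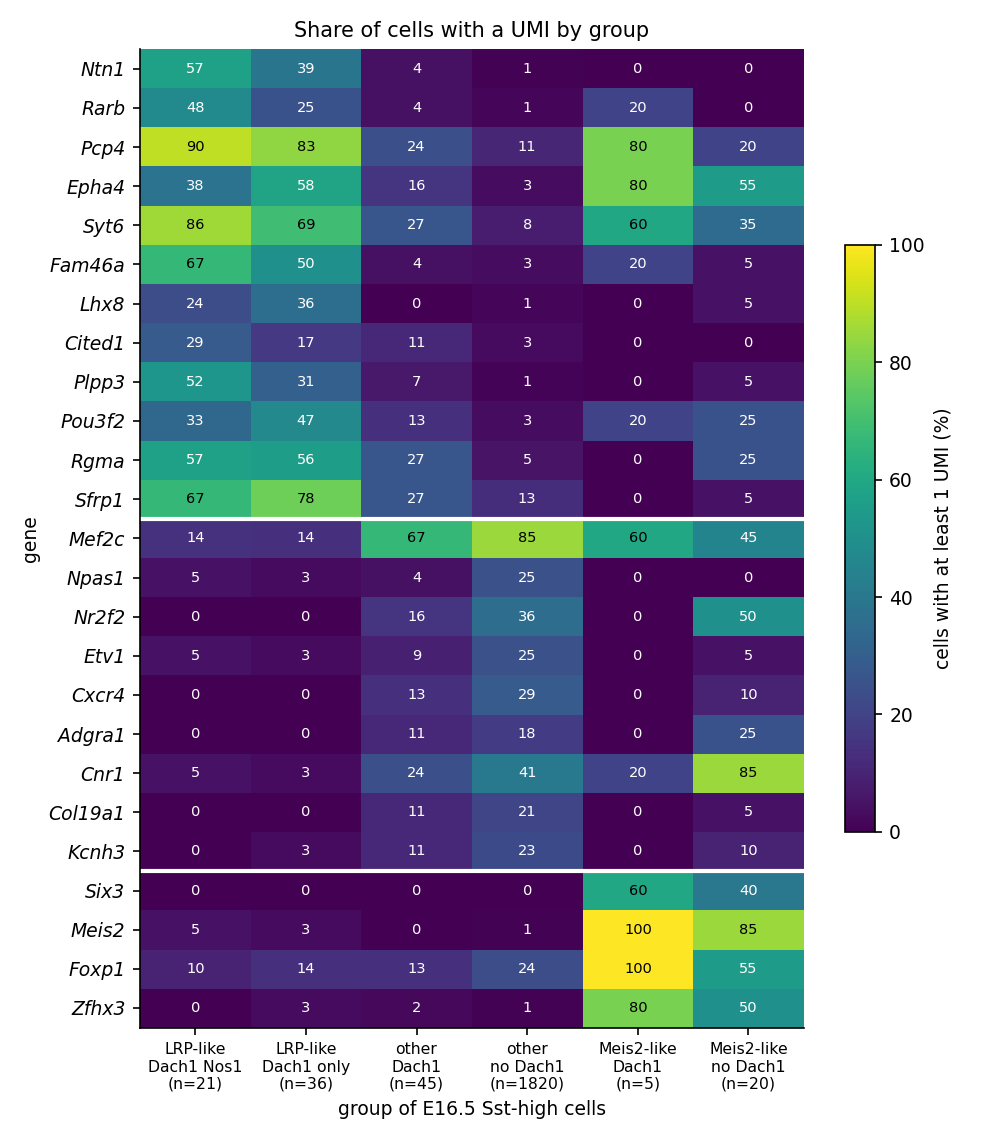
The share of cells with at least 1 UMI (color and figure in each field, %) for named genes (y axis) in groups of E16.5 Sst-high cells (x axis). Pcp4 and Syt6 are common in the Dach1 cells of the LRP-like cluster, Six3 and Meis2 appear in those of the Meis2-like cluster, and Mef2c is common in those of the other clusters.

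The 45 Dach1 cells outside the LRP-like and Meis2-like clusters held genes that were rare in the LRP-like cluster and common in cells without Dach1. Mef2c, an activity-linked factor of cortical interneurons, had 177 UMIs in 30 of the 45 cells, at 519 CPM, and 9 UMIs in the 57 Dach1 cells of the LRP-like cluster, against 679 CPM in cells without Dach1. Ackr3, a scavenger receptor of the ligand of CXCR4, had 39 and 5 UMIs. Nr2f2 was found in 7 of the 45 and in none of the 57. Only 1 of the 45 had a Nos1 UMI.

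Against the 1820 cells without Dach1 in the same clusters, 461 of 6778 genes were higher in these 45 cells (6.8%) and 396 lower (5.84%). All 5 entered LRP markers were higher, with a median of 1.13 against 0.02 over all genes. Npy was at 4436 CPM against 2142 CPM, Syt6 at 87.9 CPM against 14.3 CPM and Pcp4 at 311 CPM against 54.0 CPM. Among genes found in at least 10% of the 45 cells the largest ratio was that of Htr1a, with 15 UMIs in 13 of 45 cells, at 44.0 CPM against 5.20 CPM. Ntng1 was at 144 CPM against 32.9 CPM, Robo1 at 85.0 CPM against 20.5 CPM and Tox, an HMG-box factor, at 141 CPM against 38.6 CPM. Vgf, a neurotrophin-induced secretory protein, had 1 UMI in these cells and was at 39.7 CPM in the others. These genes too were chosen after their values were seen. Of the longer list of LRP neuron genes 84 entered, 43 higher and 0 lower, with a median of 0.60. The clusters hold Dach1 cells in different shares, so a difference between clusters and a difference within them cannot be told apart in these sums.

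The 5 Dach1 cells of the Meis2-like cluster are described by genes that define that cluster, which is no test. Their 8 Dach1 UMIs were 2, 1, 1, 1 and 3 per cell, and after thinning none kept a Dach1 UMI. Six3, a homeobox factor of the early forebrain, had 82 UMIs in 3 of these cells and 0 in the other 102 Dach1 cells. Meis2, also a homeobox factor, had 61 UMIs in all 5 cells, Zfhx3 36 UMIs in 4 and Foxp1, a forkhead factor of striatal neurons, 72 UMIs in 5. Lhx6 and Sox6 had 0 UMIs in them. Their median depth, 11375 UMIs, was above that of the other Dach1 cells, and cells of 2 types caught together were not removed by a doublet caller, so their part in this cluster was not tested. Tac1, the gene of substance P, had 123 of its 195 UMIs in 2 of these 5 cells. Of 4 entered Meis2-type markers 3 were higher over all Dach1 cells, while of 2 that entered in the 45 cells of the other clusters 0 were higher and 1 was lower.

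Markers of cells outside the inhibitory lineage were rare in Dach1 cells. Of 10 excitatory neuron markers 1 UMI was found, of Neurod6, at 1.35 CPM summed over the list against 10.7 CPM in cells without Dach1, and Neurod2, Tbr1 and Slc17a7 were at 0. Glial markers had 4 UMIs, and those of microglia and vessels and of Cajal-Retzius cells 1 UMI each. Markers of dividing progenitors had 23 UMIs, at 31.0 CPM (19.6 to 46.5) against 21.2 CPM (18.8 to 23.7), with Top2a at 0. Subpallial and striatal markers had 50 UMIs from Lhx8, Nkx2-1 and Isl1, at 67.3 CPM (50.0 to 88.7) against an interval of 14.0 to 18.2 CPM, with Chat at 0. Lypd1, a membrane-anchored protein of the Ly6 family, had 4 UMIs in 4 Dach1 cells and was in 1.94% of cells without Dach1.

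To see whether the embryonic values were met again, the same rule was applied to the postnatal libraries, which had not been used to choose the genes. It gave 117 of 1126 Sst-high cells at P1 (10.4%, 8.67% to 12.3%) and 45 of 1311 at P5 (3.43%, 2.51% to 4.57%), and after thinning the Dach1 shares were 3.31%, 6.85% and 2.31% at E16.5, P1 and P5. Each stage is 1 library, with its own pool of animals and its own capture, so stage and library cannot be told apart.

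Nos1 was found in most Dach1 cells after birth. It was detected in 20.6% at E16.5, 86.3% at P1 (78.7% to 92.0%) and 82.2% at P5 (67.9% to 92.0%), or after thinning in 13.3%, 83.0% and 80.0%. Among Sst-high cells without Dach1 the shares were 1.02%, 26.6% and 29.9%. Of the postnatal Sst-high cells that could be typed 709 at P1 and 545 at P5 had Y genes, and 1 at each stage had Xist. Among Dach1 cells with Y genes Nos1 was found in 0 of 23 at E16.5, which allows up to 14.8%, in 65 of 76 at P1 and in 11 of 14 at P5. In Dach1 cells the level of Nos1 was 120 CPM (96.2 to 147) at E16.5, 2761 CPM (2626 to 2901) at P1 and 2561 CPM (2352 to 2785) at P5.

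**Figure D4:**
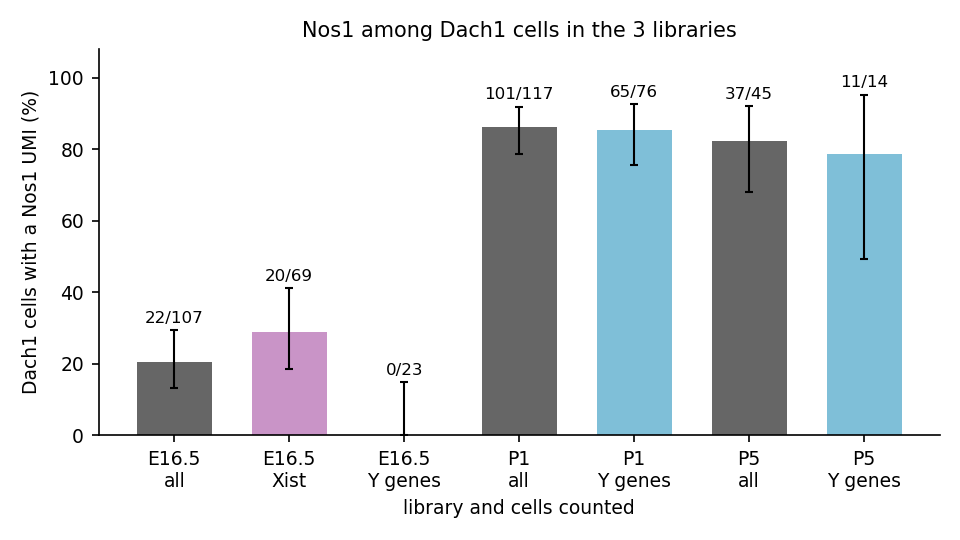
The share of Dach1 cells with a Nos1 UMI (y axis, %) by library and by the cells counted (x axis; all, with Xist, or with Y genes); bars give the share and lines the exact 95% interval. The E16.5 share is 20.6%, and the P1 and P5 shares are 86.3% and 82.2%.

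Most genes with the largest or smallest ratios at E16.5 were past the fold in the same direction after birth. Of the 12 genes with the largest ratios at E16.5, 10 entered at P1 and all 10 were past the fold in the same direction (5.74% of all genes were), and the median log2 ratio of all 12 was 2.54. At P5 10 entered and 10 were past it (11.6% of all genes were), and the median of all 12 was 2.42. Lhx8 and Cited1 did not enter at either stage. Rarb was at 124 CPM against 17.3 CPM at P1 and at 126 CPM against 14.2 CPM at P5, and Pcp4 at 2257 CPM against 285 CPM and at 4312 CPM against 894 CPM. Of the 8 genes with the smallest ratios 7 entered at P1 and 5 at P5, all lower past the fold, beside 8.83% and 14.4% of all genes. Etv1 did not enter at P1, and Etv1, Cxcr4 and Kcnh3 did not at P5, where Etv1 and Cxcr4 had 3 and 1 UMIs in Dach1 cells. The contrast after birth is partly one of Nos1, since most Dach1 cells had it and most other cells did not.

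**Figure D5:**
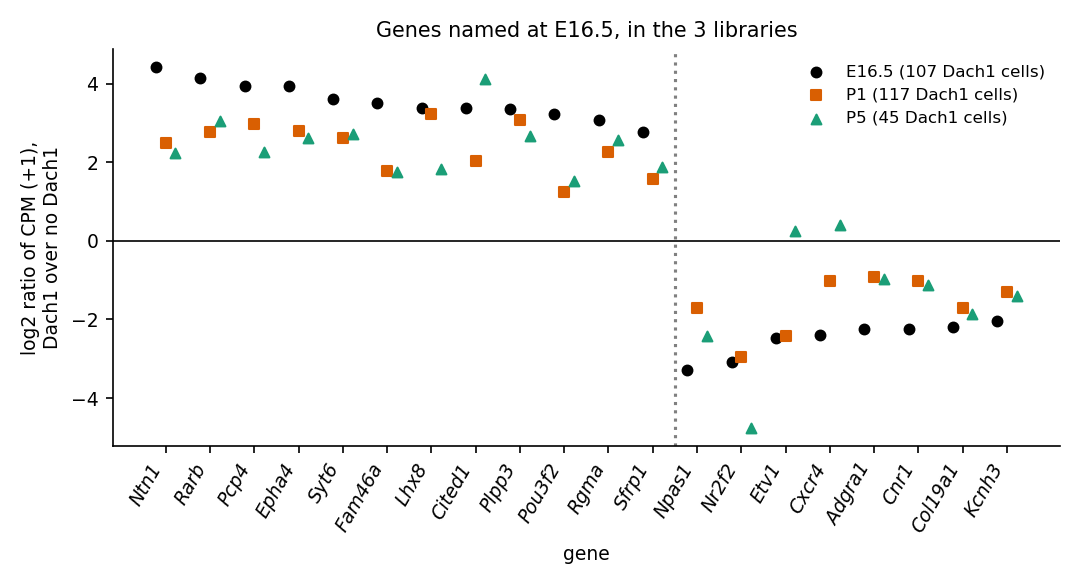
The log2 ratio of CPM (+1) of Dach1 cells over cells without Dach1 (y axis) for the 12 genes with the largest and the 8 with the smallest ratios at E16.5 (x axis), with 1 marker for each of the libraries. The 12 lie above 0 at all 3 stages, and the 8 below it save Etv1 and Cxcr4 at P5.

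Some genes were met mainly after birth. Hhip had 5 UMIs in Dach1 cells at E16.5 and was at 150.3 CPM (120.1 to 186) against 6.18 CPM (4.31 to 8.60) at P1 and at 149 CPM (102 to 210.4) against 7.25 CPM (5.30 to 9.66) at P5. Chodl was at 366 CPM against 78.2 CPM at P1 and at 321 CPM against 105 CPM at P5, and the share of Dach1 cells with it was 19.6% in the embryo, 62.4% on P1 and 62.2% on P5. Of LRP markers not used by the rule 10 of 11 that entered were higher at P1 and 0 lower, and 10 of 12 were higher at P5 and 1 lower. Of all genes 5.74% were higher and 8.83% lower at P1, and 11.6% higher and 14.4% lower at P5. Markers such as Hhip entered only through Dach1 cells, so these marker counts are no test.

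Dach1 cells without Nos1 were few after birth, 16 at P1 and 8 at P5. Against cells with neither gene, 1067 of 7236 genes were higher at P1 (14.7%) and 1170 lower (16.2%), and 1824 of 6804 higher at P5 (26.8%) and 1424 lower (20.9%). Of LRP markers 6 of 9 entered were higher and 1 lower at P1, and 5 of 7 were higher and 1 lower at P5, with medians of 0.69 and 2.00, against 2.32 at E16.5. These cells held 114736 UMIs at P1, and whether the lists differ between stages was not tested.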

How the data were processed

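Single-cell RNA-seq libraries (10x Genomics) were made from 1 pool of animals at each of E16.5, P1 and P5. The authors deposited counts, unnormalized UMIs per gene and cell over 31053 genes, which the matrix headers give as Cell Ranger output (version 3.1.0 at E16.5 and P5, 3.0.2 at P1); per the submitters' notes the build was GRCm38. Library totals were 25638779, 15654107 and 13429055 UMIs over 4478, 4440 and 3406 cells. UMIs were summed per group and scaled to CPM, and genes with a mean CPM of at least 20 over both groups entered. Ratios were log2(CPM + 1), and 1.5-fold was the limit for higher or lower. Intervals and floors (3 counts) cover counting error only. Sst-high E16.5 cells were clustered by Leiden (leidenalg 0.10.2, resolution 1, 15 components, 2000 variable genes) without Dach1, Sst, Nos1, mitochondrial, ribosomal and Y genes. Named genes were the 12 largest and 8 smallest ratios with a UMI in at least 10% of cells of the higher group, 4 per list and fixed defining genes; others are said to be chosen later. No doublet caller was run. Calculations were run in Python 3.11.15 (SciPy 1.17.1, NumPy 2.4.6, pandas 2.3.3) and tested on simulated data. The members and gene lists were chosen with earlier results of these data known.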

Additional observations from a re-analysis of the deposited data

Results flagged for a closer look

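Npy2r, which encodes a receptor for neuropeptide Y, had opposite directions at E16.5 and after birth. In Dach1 cells at E16.5 it was at 25.6 CPM against 42.2 CPM in cells without Dach1, a log2 ratio of -0.70. At P1 it was at 35.4 CPM against 16.4 CPM (log2 ratio 1.06) and at P5 at 41.9 CPM against 3.62 CPM (log2 ratio 3.21). These rest on 19 UMIs in Dach1 cells at E16.5, and on 113 UMIs at P1 and 32 at P5 over both groups together. At E16.5 Npy2r was also among the leading genes of cluster 12, where 1 of 77 cells had Dach1. The difference between stages was not tested, since each stage is 1 library.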

How the results depend on the processing

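Of 162 alternatives for summary values 112 kept the value within 1.5 times or its interval and 50 moved it, and of 880 for named genes 875 kept direction and side of the fold. The Dach1 share of 5.46% became 3.99% with at least 1 Sst UMI, 6.88% with at least 10, 3.31% when thinned, 8.61% in Xist cells and 3.08% in Y-gene cells. For Dach1 against no Dach1 (398 higher, 331 lower) the counts were 647 and 542 with at least 2 Dach1 UMIs, 702 and 675 at middle depths, 950 and 876 at a mean of 5 CPM, 156 and 137 at 50 CPM, 2044 and 2288 unfiltered, 155 and 92 at a fold of 2, and 966 and 997 in Y-gene cells; 623 were higher in Xist cells and 195 lower with a pseudocount of 10. For Dach1 without Nos1 against neither (434 and 332) the same settings gave 730 and 615, 771 and 722, 1053 and 955, 148 and 127, 2113 and 2701, 132 and 83, and 970 and 992, with 736 higher in Xist cells and 282 and 209 with a pseudocount of 10. At 50 CPM the counts with against without Nos1 were 487 and 411, and without Nos1 against neither 443 and 382 at P1 and 1033 and 648 at P5. The LRP marker median fell to 1.13 without the LRP-like and Meis2-like clusters, and for cells without Nos1 to 1.61 at 5 CPM, 1.46 unfiltered and 1.14 without those clusters. Without them Fam46a and Lhx8 reversed, to -0.36 and -1.92, and for cells without Nos1 to -0.33 and -1.93. The Dach1 share of the cluster with most Dach1 cells was 36.0% at resolution 0.5, and that cluster held 30.4% of the Dach1 Y-gene cells. The settings by Xist or Y genes for shares, those without clusters, and the 50 CPM filter beyond the first 2 comparisons were chosen after seeing the data. The cause of these shifts was not tested. No paired analysis was possible because each stage is 1 library. Depth limits what can be said of the 22 cells with Nos1 and of genes with few UMIs.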
